A study of Mus musculus with 46 samples.

Results

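Young mouse liver 0.5 h after partial hepatectomy (PH), the earliest sampled time after surgery, was set against young liver at 0 h. The 6 arrays, of 46 in the series, were chosen by their labels alone: 3 from young livers at 0.5 h after PH and 3 from young control livers at 0 h. All mice were male CB6F1 hybrids, and young ones were 5 to 6 months old. In the PH group 70% of the liver was removed under injected avertin and inhaled isoflurane, and the remnant was collected 0.5 h later. The 0 h livers carry the treatment label "none", and the protocol text, common to all samples, describes anaesthesia without saying whether it covered them. The other groups compared here were 3 young livers at 1 h after PH, 3 old livers (25 to 27 months) at 0.5 h after PH, 2 young livers at 0.5 h after a sham operation and 3 old livers at 0 h. Young livers at 2 h and 4 h after PH (3 each) and at 1 h, 2 h and 4 h after sham (2 each) appear as group values only. All 46 arrays share 1 estimate of the spread. Old mice came from the National Institute on Aging and young mice from Jackson Laboratories, so age and supplier cannot be told apart. No clock hour of collection is given in the sources used here for any group. The labels number the arrays as replicates without naming separate animals, so the p-values cover the spread between these arrays only, and that spread may be technical. The comparisons of young PH 0.5 h with 0 h, of sham with 0 h and of PH with sham share arrays, as do those of PH 1 h and of age.

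After resection, hepatocytes that rarely divide are primed to re-enter the cell cycle, and the liver regains its mass by division of the cells that remain. The first transcriptional step is a set of immediate early genes, whose transcription needs no new protein; they encode transcription factors such as Fos, Jun and Egr1 and feedback inhibitors of the same signals. Many of them also answer to anaesthesia, laparotomy and handling, which is why a sham operation is used as a surgery control. The liver also runs its own circadian clock, in which Arntl and Clock drive Per2, Dbp and many metabolic genes, so that the level of such genes depends on the hour of collection.

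Values are RMA log2 expression per probe set, so that 1 unit is a doubling of the measured level; a difference is given with its standard error (SE) from limma. Whole-liver RNA cannot tell fewer cells of a type from less RNA per cell. Young 0 h replicate 3 stood apart from the other 2: its 3′ actin control read 10.76, against 12.59 and 12.67 in the others, and 12.46 to 12.67 in the PH arrays. The same control read 11.76 and 11.56 in the young sham arrays at 0.5 h, below all PH arrays and below 0 h replicates 1 and 2. Over the sham arrays of both ages and all times it read 11.27 to 12.24, against 12.14 to 13.13 in the PH arrays. The mean of the hybridisation spike-ins ran from 9.05 to 9.55 in the sham arrays and from 7.68 to 10.90 in the PH arrays. Young 0 h replicate 3 correlated at 0.9938 with sham replicate 2, and at 0.9933 and 0.9907 with 0 h replicates 1 and 2. The part of these differences in the results that use sham arrays was not tested. The mean of the 9 measured hepatocyte markers, of 12 listed, was 12.09 to 12.12 in PH arrays and 11.99 to 12.07 in 0 h arrays. The mean of the 7 adipocyte markers measured, of 9 listed, was 5.82 to 5.85 in PH arrays and 5.90 to 5.96 in 0 h arrays. Of 12 marker lists only these 2 had no overlap between the groups, and an exact two-sided permutation test of 3 against 3 arrays cannot go below p = 0.1. Neutrophil markers, 15 of 17 measured, ran from 5.48 to 5.64 in PH arrays and from 5.49 to 5.66 in 0 h arrays. The part of cell composition in the results below was not tested.

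Of all genes 5 passed the test, 4 higher and 1 lower after PH. Noct, a rhythmic phosphatase of NADP(H), and Per2, a repressor within the circadian clock, rose 2.74-fold and 2.82-fold. Usp2, a ubiquitin-specific protease with a strong daily rhythm in liver, rose 2.17-fold, and Thrsp (Spot 14), a protein that promotes fatty acid synthesis, rose 4.41-fold. Zbtb16, a zinc finger transcriptional repressor, was 5.95-fold lower. In limma, 5 of 12422 probe sets (0.0403%) had an adjusted p under 0.05, and 675 (5.43%) had an unadjusted p under 0.05, 320 of them higher and 355 lower. Without young 0 h replicate 3 the count was 14, and all 5 of these probe sets passed, with adjusted p of 0.000436 for Noct and Thrsp, 0.000851 for Per2, 0.00095 for Usp2 and 0.0276 for Zbtb16. Without young 0 h replicate 1 it was 2: Noct and Per2 passed, and Thrsp (adjusted p = 0.249), Usp2 (0.199) and Zbtb16 (0.199) did not. Those 3 also missed the threshold without young 0 h replicate 2 (Thrsp 0.114, Usp2 0.0636, Zbtb16 0.0636) and with the sham arrays left out of the fit (Thrsp 0.0688, Usp2 0.0653, Zbtb16 0.0805). An adjusted p under 0.10 was reached by 24 probe sets, 11 of which lay between 0.05 and 0.06.

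Noct read 10.04, 9.46 and 9.76 in the 3 PH arrays, 8.74 and 8.43 in the sham arrays and 8.28, 8.11 and 8.51 at 0 h. The PH arrays were all above the sham and 0 h arrays, a difference from 0 h of 1.45 ± 0.20 (SE; adjusted p = 0.000276). A second Noct probe set was above 0 h in all arrays as well (0.84 ± 0.20, adjusted p = 0.0988), while the remaining one differed by 0.11 ± 0.22. Per2 read 4.88, 4.88 and 5.88 in PH arrays, 3.63 and 3.41 in sham arrays and 3.80, 3.53 and 3.83 at 0 h. Its values were low on this scale, and the sham arrays sat at the 0 h level (PH minus 0 h 1.49 ± 0.21, adjusted p = 0.000276). Usp2 read 8.15, 7.99 and 7.84 in PH arrays, 6.45 and 6.46 in sham arrays and 6.60, 6.77 and 7.26 at 0 h, a difference of 1.11 ± 0.19 (adjusted p = 0.0078). A brighter Usp2 probe set gave 1.09 ± 0.26 (adjusted p = 0.0988), with young 0 h replicate 3 at 8.32 inside the PH range, whose highest array read 8.73. Thrsp read 11.09, 10.74 and 11.24 in PH arrays, 9.07 and 8.56 in sham arrays and 8.36, 8.29 and 10.01 at 0 h. The same 0 h array was again the highest of its group, and the difference was 2.14 ± 0.39 (adjusted p = 0.0126). Zbtb16 read 7.59, 5.05 and 5.67 in PH arrays, 7.86 and 7.40 in sham arrays and 8.83, 8.67 and 8.53 at 0 h, a difference of -2.57 ± 0.47 (adjusted p = 0.0129). Its PH arrays spread widely, the sham arrays lay between 0 h and 2 of them, and a second Zbtb16 probe set gave -0.11 ± 0.11 (adjusted p = 0.99).

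Of the 26 listed clock genes 22 were measured, and 2 of them (Per2 and Noct) passed, both higher, against 3 higher and 1 lower of all 8251 genes. Usp2 is counted here on its brighter probe set, which did not pass (adjusted p = 0.0988). The median difference of the 22 was 0.167, against -0.024 over all 8251 genes. In 7 of the 22 (31.8%) all 3 PH arrays were above all 3 at 0 h, and in 2 (9.09%) all were below. Over all genes, with the probe set of highest mean per gene, such separation was seen for 480 (5.82%) above and 638 (7.73%) below, or 7.02% and 5.88% with each array centred on its median. Dbp, a clock-driven transcription factor, read 6.96, 8.02 and 7.28 in PH arrays, 4.78 and 5.04 in sham arrays and 4.77, 4.95 and 6.28 at 0 h. The groups did not overlap, but the difference of 2.09 ± 0.46 missed the threshold (adjusted p = 0.0568). Wee1, a kinase that restrains Cdk1 and is itself clock-driven, read 5.67, 6.29 and 5.97 in PH arrays, 4.80 and 4.85 in sham arrays and 5.22, 5.18 and 5.32 at 0 h (0.73 ± 0.16, adjusted p = 0.0512). Bhlhe40, a repressor that feeds back on the clock, read 8.75, 8.53 and 9.30 in PH arrays, 8.34 and 7.84 in sham arrays and 7.50, 7.65 and 7.48 at 0 h (1.31 ± 0.38, adjusted p = 0.349). Arntl, the activator of the clock's positive arm, went the other way. It read 5.67, 5.15 and 5.68 in PH arrays, 7.17 and 7.23 in sham arrays and 7.18, 7.15 and 6.10 at 0 h (-1.31 ± 0.33, adjusted p = 0.147). Per1, the paralogue of Per2 that responds quickly to hormones, differed by 0.17 ± 0.15, with overlapping arrays. Young 0 h replicate 3 was nearest to the PH arrays for both Arntl and Dbp. Without it, 4 of the 22 clock genes passed as higher and 1 as lower, against 7 and 4 of all 8251 genes. In that setting 11 clock genes (50%) were separated above and 5 (22.7%) below, against 9.4% and 13.2% of all genes. Collection hour was not tested.

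**Figure D1:**
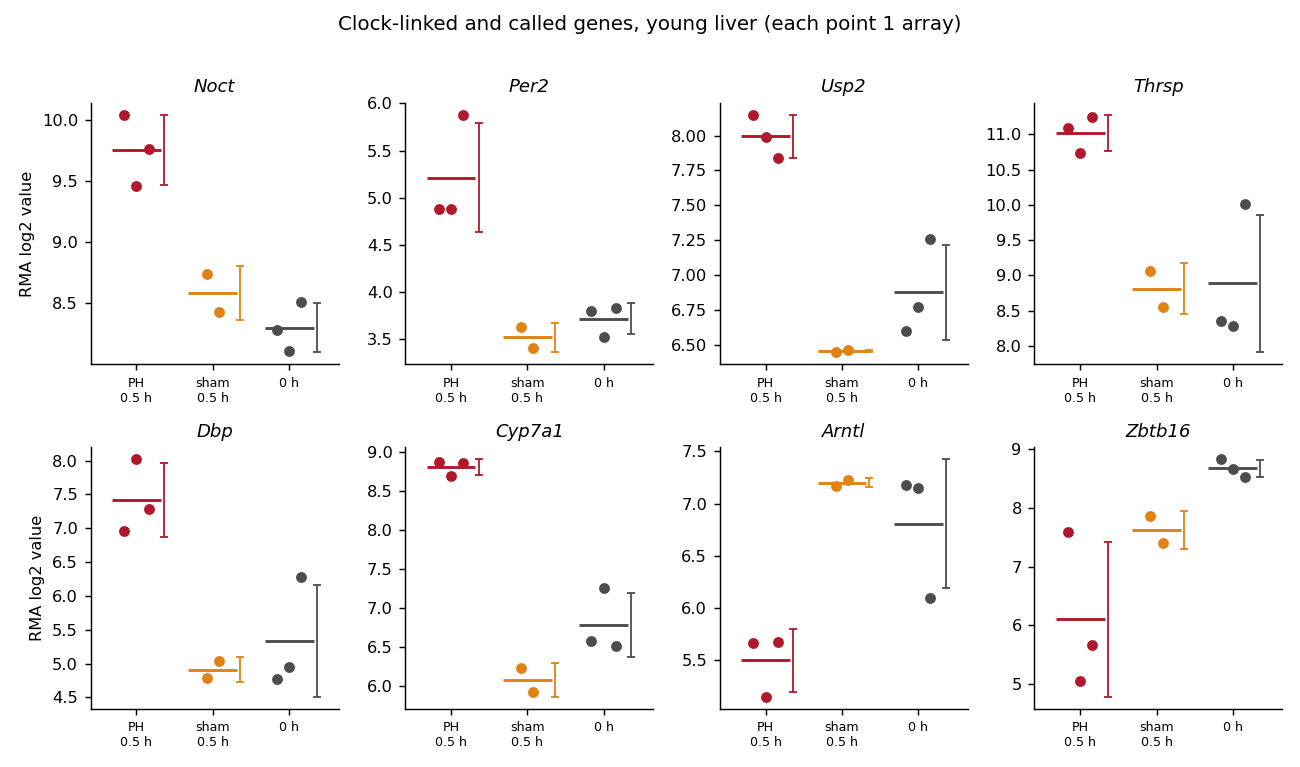
Each panel plots the RMA log2 value of 1 gene in young liver for PH at 0.5 h, sham at 0.5 h and 0 h; points are arrays, bars are means and whiskers are SD (n = 3, 2 and 3). The 3 PH arrays lie above both other groups for Noct, Per2, Usp2, Thrsp, Dbp and Cyp7a1 and below them for Arntl, and the sham arrays lie with the 0 h arrays or on their far side from PH, save for Noct where 1 sham array is slightly above; for Zbtb16 the PH arrays are widely spread.

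Among the immediate early transcription factors Fos, Egr1, Jun, Junb, Atf3 and Ier2 lay above every 0 h array in all young livers at 0.5 h after PH or sham. No member passed the test in the fit over all arrays. Of 39 listed, 35 were measured, 0 passed, and 13 (37.1%) had all PH arrays above all 0 h arrays, against 1 (2.86%) below. Over all genes these shares were 5.82% and 7.73%, and 3 of 8251 passed as higher and 1 as lower. The median difference of the list was 0.098. Fos, a partner in the AP-1 factor, read 8.12, 7.48 and 9.49 in PH arrays, 7.79 and 9.27 in sham arrays and 4.35, 4.36 and 3.56 at 0 h. The PH and sham arrays overlapped each other and lay far above 0 h, a difference of 4.27 ± 0.92 or 19.3-fold (adjusted p = 0.0515). A second, dim Fos probe set differed by 0.01 ± 0.15. The shared spread counts here: within groups the SD of Fos ran up to 3.64, in old liver at 0.5 h after PH, against 1.02 in the young PH arrays and 0.46 in the young 0 h arrays. In a fit on the 6 arrays alone the adjusted p of Fos was 0.00213, and 8 of the 35 transcription factors passed, all higher, where 36 of the 8251 genes passed as higher and 3 as lower. Egr1, a zinc finger factor induced by growth factor signals, read 9.56, 9.55 and 9.76 in PH arrays, 9.32 and 10.31 in sham arrays and 6.82, 7.31 and 6.70 at 0 h. Again PH and sham lay together above 0 h (2.68 ± 0.57, 6.42-fold, adjusted p = 0.0512, and 3.55e-05 in the 6-array fit). A second, dim Egr1 probe set gave 0.08 ± 0.15.

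Jun, the partner of Fos in AP-1, read 7.59, 7.52 and 7.71 in PH arrays, 7.14 and 7.60 in sham arrays and 6.81, 6.59 and 6.77 at 0 h (0.88 ± 0.22, adjusted p = 0.147). Junb read 8.28, 7.92 and 8.18 in PH arrays, 8.18 and 8.39 in sham arrays and 7.67, 7.26 and 7.48 at 0 h (0.65 ± 0.19, adjusted p = 0.328). In both, every array taken 0.5 h after an operation was above every 0 h array. A second Junb probe set gave 1.04 ± 0.27 (adjusted p = 0.183). Atf3, a stress-induced repressor, read 7.77, 7.25 and 7.80 in PH arrays, 7.13 and 7.46 in sham arrays and 6.17, 6.25 and 6.10 at 0 h (1.43 ± 0.55, adjusted p = 0.786). Ier2, a nuclear protein, read 9.53, 8.68 and 9.50 in PH arrays, 9.21 and 9.58 in sham arrays and 7.95, 7.95 and 7.67 at 0 h (1.38 ± 0.51, adjusted p = 0.786). Both show the same separation of operated from 0 h livers on these probe sets. Other Atf3 probe sets gave 0.46 ± 0.31 and -0.10 ± 0.17. Nr4a1, an orphan nuclear receptor, read 7.13, 6.93 and 7.02 in PH arrays, 6.89 and 6.85 in sham arrays and 5.91, 6.02 and 6.21 at 0 h (0.98 ± 0.37, adjusted p = 0.786). Cebpb, a liver factor needed for regeneration, differed from this pattern: 10.75, 10.42 and 10.38 in PH arrays, against 9.17 and 9.38 in sham arrays and 9.39, 9.71 and 9.62 at 0 h (0.94 ± 0.26, adjusted p = 0.258). Its sham arrays were the lowest of the 3 groups. Fosb (0.22 ± 0.31) and Klf6 (0.27 ± 0.28) differed less. Myc read 4.73, 4.98 and 4.49 in PH arrays, 3.67 and 4.20 in sham arrays and 5.44, 4.79 and 3.67 at 0 h, with the PH arrays inside the 0 h range.

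The proximal promoters below are examples from named genes high after PH, picked by hand among those that hold a motif searched for here. They do not show how common a motif is. Zfp36 and Jun were above 0 h after sham too, while the sham arrays of Actg1, from the cytoskeleton list, lay nearer to 0 h than to PH. Each sequence is the first 250 bases upstream of the start in RefSeq's table (build GRCm38.p6), 5′ to 3′ on the gene's strand, with the motif in capitals. Motifs were searched on both strands as CACGTG (E-box), TGANTCA (the AP-1 site), TGACATCA (the AP-1 site of the Jun type), TGACGTCA (cAMP response element), CAAAACA (insulin response core), TTANGTAA (D-box) and the CArG box, where serum response factor binds. Promoters were found for 96 of the 128 named genes. The Zfp36 promoter (chr7:28379229-28379478, minus strand) holds a CArG box that begins at -58 from the start. The Jun promoter (chr4:95052223-95052472, minus strand) holds the Jun-type AP-1 site at -45. The Actg1 promoter (chr11:120348496-120348745, minus strand) holds an E-box at -141 and a CArG box at -90.
Zfp36: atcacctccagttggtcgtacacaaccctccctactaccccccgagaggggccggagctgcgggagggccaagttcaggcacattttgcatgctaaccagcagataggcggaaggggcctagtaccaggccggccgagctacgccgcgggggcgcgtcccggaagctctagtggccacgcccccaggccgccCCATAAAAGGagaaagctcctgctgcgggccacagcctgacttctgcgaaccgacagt
Jun: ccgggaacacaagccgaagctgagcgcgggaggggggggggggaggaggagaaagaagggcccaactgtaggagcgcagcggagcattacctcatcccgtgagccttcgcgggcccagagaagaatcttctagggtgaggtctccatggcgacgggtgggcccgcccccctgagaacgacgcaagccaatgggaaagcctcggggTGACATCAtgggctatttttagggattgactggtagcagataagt
Actg1: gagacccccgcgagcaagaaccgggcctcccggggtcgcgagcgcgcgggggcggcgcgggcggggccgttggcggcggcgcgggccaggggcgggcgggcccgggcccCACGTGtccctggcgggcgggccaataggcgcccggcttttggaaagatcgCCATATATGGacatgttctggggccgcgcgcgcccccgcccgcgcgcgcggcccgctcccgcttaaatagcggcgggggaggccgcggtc
The CArG box was in 4 of 35 promoters (11.4%) of 26 immediate early transcription factors, against 1.47% of all 32851 promoters of this length. Among 40 promoters of 26 other immediate early genes, the list that holds Zfp36, it was in 1 (2.5%). Among 122 promoters of named genes it was in 4 (3.28%). The cAMP response element was in 5 of those 40 promoters (12.5%) and in 1 of 35 (2.86%) of the transcription factors, against 1.55% of all. The Jun-type AP-1 site was in 3 of 35 promoters (8.57%) of the transcription factors and 0 of 40 of the other immediate early genes, against 2.93% of all. The E-box was in 4 of 27 clock gene promoters (14.8%) and 8 of 35 of the transcription factors (22.9%), against 6.02% of all promoters. It was also in 7 of 40 of the other immediate early genes (17.5%) and 6 of 26 of the insulin, glucagon and glucocorticoid list (23.1%). The AP-1 site was in 1 of 35 promoters (2.86%) of the transcription factors and 1 of 40 (2.5%) of the other immediate early genes, against 6.75% of all. A match describes the letters only.

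Of 41 other immediate early genes listed, 29 were measured and 0 passed; in 10 (34.5%) all PH arrays were above and in 2 (6.9%) below 0 h, and the median difference was 0.177. Over all genes the shares were 5.82% above and 7.73% below. Zfp36, which destabilises cytokine mRNAs, read 10.43, 9.95 and 10.33 in PH arrays, 10.09 and 10.29 in sham arrays and 9.11, 9.04 and 9.13 at 0 h (1.14 ± 0.31, adjusted p = 0.206). Dusp6, a phosphatase that switches off ERK, read 8.77, 8.69 and 9.30 in PH arrays, 9.15 and 9.29 in sham arrays and 6.99, 7.88 and 7.88 at 0 h (1.34 ± 0.40, adjusted p = 0.388). A second, dim Dusp6 probe set gave 0.08 ± 0.19. Slc25a25, a mitochondrial carrier of adenine nucleotides, read 11.52, 11.07 and 11.44 in PH arrays, 11.11 and 11.25 in sham arrays and 10.18, 10.10 and 10.74 at 0 h (1.00 ± 0.26, adjusted p = 0.166). For these 3 the sham arrays lay within the PH range and above 0 h. Btg2, an inhibitor of proliferation, differed by 0.56 ± 0.34, and its relative Btg1 by -0.80 ± 0.30 (adjusted p = 0.786). Btg1 read 6.76, 6.20 and 6.19 in PH arrays, 7.75 and 7.78 in sham arrays and 7.21, 7.47 and 6.88 at 0 h. Dusp1, another MAP kinase phosphatase, gave 0.52 ± 0.42, and Ier3 0.13 ± 0.52. The 6-array fit called 5 of these 29 genes higher. Without young 0 h replicate 3 the separated counts among the transcription factors were 16 above (45.7%) and 8 below (22.9%). Among the other immediate early genes they were 11 above (37.9%) and 4 below (13.8%). The shares over all genes were then 9.4% above and 13.2% below.

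**Figure D2:**
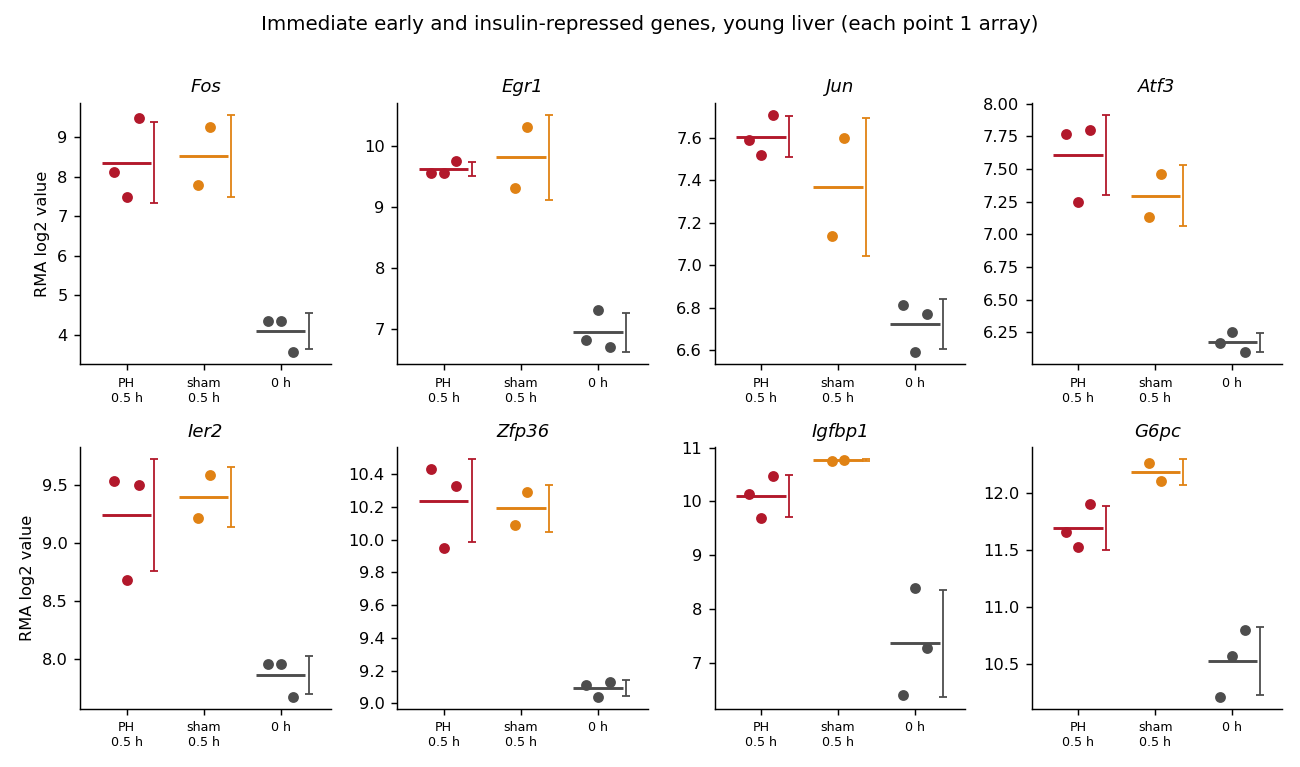
Each panel plots the RMA log2 value of 1 gene in young liver for PH at 0.5 h, sham at 0.5 h and 0 h; points are arrays, bars are means and whiskers are SD (n = 3, 2 and 3). PH and sham arrays lie above all 0 h arrays for Fos, Egr1, Jun, Atf3, Ier2, Zfp36, Igfbp1 and G6pc. For Igfbp1 and G6pc the sham arrays also lie above all PH arrays.

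Genes that insulin represses and glucagon or glucocorticoid induces were led by Igfbp1 and G6pc. Igfbp1, a secreted binding protein for insulin-like growth factors and one of the best-known early genes of regenerating liver, read 10.14, 9.69 and 10.47 in PH arrays, 10.76 and 10.78 in sham arrays and 6.41, 8.39 and 7.28 at 0 h. The sham arrays were the highest, and PH exceeded 0 h by 2.74 ± 0.57 or 6.68-fold (adjusted p = 0.0512). A second, dim Igfbp1 probe set gave -0.004 ± 0.12. G6pc, the enzyme that releases free glucose, read 11.66, 11.52 and 11.90 in PH arrays, 12.26 and 12.10 in sham arrays and 10.21, 10.57 and 10.80 at 0 h (1.17 ± 0.30, adjusted p = 0.17). The order of the 3 groups was the same as for Igfbp1. Pck1, the first committed enzyme of gluconeogenesis, read 10.62, 10.54 and 10.37 in PH arrays, 10.20 and 10.09 in sham arrays and 9.98, 10.32 and 10.34 at 0 h (0.30 ± 0.20). Angptl4, an inhibitor of lipoprotein lipase, lay below: 7.84, 7.86 and 7.87 in PH arrays, against 9.04 and 8.86 in sham arrays and 8.28, 8.48 and 8.73 at 0 h (-0.64 ± 0.17, adjusted p = 0.209). Its other probe sets gave -0.52 ± 0.20, -0.10 ± 0.11 and 0.06 ± 0.12. Of 35 listed genes 26 were measured and 0 passed; 6 (23.1%) were separated above and 3 (11.5%) below, and their median difference was -0.042. Over all genes the shares were 5.82% above and 7.73% below. The promoters of the 2 leading genes carry the insulin response core, in capitals in the next sequences, at -108 in Igfbp1 and, as its reverse complement, at -174 in G6pc, where the promoter also carries a D-box at -162. They lie at chr11:7197537-7197786 and chr11:101367466-101367715, both on the plus strand.
Igfbp1: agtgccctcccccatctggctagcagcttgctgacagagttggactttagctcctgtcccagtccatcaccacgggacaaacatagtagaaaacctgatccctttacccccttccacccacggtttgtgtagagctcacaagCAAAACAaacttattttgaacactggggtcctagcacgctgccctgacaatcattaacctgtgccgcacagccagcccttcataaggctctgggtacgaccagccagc
G6pc: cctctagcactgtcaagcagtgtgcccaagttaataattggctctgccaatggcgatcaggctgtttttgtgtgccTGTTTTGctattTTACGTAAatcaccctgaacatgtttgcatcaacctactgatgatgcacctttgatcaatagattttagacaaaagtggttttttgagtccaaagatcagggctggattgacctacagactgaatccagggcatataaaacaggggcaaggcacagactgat
The core was in 5 of 26 promoters (19.2%) of the 20 list members found, against 5.56% of all promoters. It was in 3 of 27 clock gene promoters (11.1%), 2 of 35 (5.71%) of the immediate early transcription factors and 0 of 40 of the other immediate early genes. The D-box was in 1 of these 26 (3.85%), against 2.06% of all.

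Among metabolic and liver-identity genes, Cyp7a1, the enzyme that limits the rate at which bile acids are made and a known rhythmic gene, read 8.88, 8.70 and 8.86 in PH arrays, 6.24 and 5.93 in sham arrays and 6.58, 7.26 and 6.52 at 0 h (2.03 ± 0.44, adjusted p = 0.0568). The PH arrays stood clear of both other groups. Among 24 measured genes of lipid synthesis, of 34 listed, Thrsp alone passed, with 4 separated above (16.7%) and 3 below (12.5%). Over all genes these shares were 5.82% and 7.73%. Elovl6, which elongates fatty acids, read 7.93, 8.08 and 8.43 in PH arrays, 7.59 and 7.50 in sham arrays and 7.27, 7.33 and 7.29 at 0 h (0.85 ± 0.22, adjusted p = 0.17). Fasn, fatty acid synthase, read 9.24, 9.09 and 9.52 in PH arrays, 9.21 and 8.99 in sham arrays and 8.31, 8.61 and 8.66 at 0 h (0.76 ± 0.20, adjusted p = 0.207). Srebf1, the factor that drives these enzymes, differed by 0.72 ± 0.18 (adjusted p = 0.13). The sham arrays of Fasn overlapped the PH arrays, unlike those of Thrsp. Of 28 measured liver transcription factors 0 passed and 8 (28.6%) were separated above and 1 (3.57%) below. Prox1, a hepatocyte homeobox factor, read 6.19, 6.30 and 6.60 in PH arrays, 5.60 and 5.46 in sham arrays and 5.83, 5.89 and 5.58 at 0 h (0.60 ± 0.17, adjusted p = 0.354). Foxa2, a pioneer factor, was the 1 below: 8.11, 8.09 and 8.27 in PH arrays, against 7.99 and 8.25 in sham arrays and 8.83, 8.86 and 8.29 at 0 h (-0.51 ± 0.16, adjusted p = 0.58). Of 27 measured genes of fatty acid oxidation 2 (7.41%) were separated above and 6 (22.2%) below, among them Cyp4a10, a PPAR-alpha target, at -1.38 ± 0.69.

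Among genes of cell contact and cytoskeleton, Gjb2, which encodes the gap junction protein connexin 26, read 11.21, 11.49 and 11.44 in PH arrays, 10.30 and 10.42 in sham arrays and 10.48, 10.71 and 10.44 at 0 h (0.84 ± 0.18, adjusted p = 0.0512). The PH arrays lay above both other groups. Actg1, cytoplasmic gamma-actin, read 11.01, 10.47 and 11.05 in PH arrays, 9.51 and 9.82 in sham arrays and 9.34, 9.39 and 9.50 at 0 h (1.43 ± 0.40, adjusted p = 0.263). Tubb2a, a beta-tubulin, lay the other way at 8.63, 8.49 and 8.53 in PH arrays, against 10.34 and 10.12 in sham arrays and 9.50, 9.52 and 9.01 at 0 h (-0.79 ± 0.31, adjusted p = 0.81). A second Tubb2a probe set, of the suffix _r_at, gave -0.04 ± 0.24. Of 53 measured members of that list 0 passed, 5 (9.43%) were separated above and 2 (3.77%) below, against 5.82% and 7.73% of all genes. Actb, by contrast, differed by 0.10 ± 0.51 on its brightest named probe set.

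Cytokine, acute phase, growth factor and cell cycle genes gave no passing member at 0.5 h, where 3 of all 8251 genes passed as higher and 1 as lower. The shares given below stand against 5.82% of all genes separated above and 7.73% below. Of 20 measured genes of IL-6 and STAT3 signalling 1 (5%) was separated above and 2 (10%) below, with a median of -0.026. Socs3, the feedback inhibitor that STAT3 induces, read 6.37, 6.56 and 6.33 in PH arrays, 6.71 and 6.78 in sham arrays and 6.68, 6.40 and 6.40 at 0 h. A second Socs3 probe set gave -0.40 ± 0.37, with all PH arrays below all 0 h arrays (adjusted p = 0.978). Socs2, an inhibitor of growth hormone signalling, differed by -1.32 ± 0.48 (adjusted p = 0.779), with young 0 h replicate 3 (7.30) inside the PH range of 6.57 to 7.62. Of 40 measured TNF, NF-kB and chemokine genes 8 (20%) were separated above and 2 (5%) below. Cxcl1, a neutrophil chemokine, read 8.01, 8.62 and 8.97 in PH arrays, 7.54 and 8.29 in sham arrays and 7.71, 7.13 and 6.39 at 0 h on its brighter probe set (1.45 ± 0.55, adjusted p = 0.786). Among 27 measured acute phase proteins 4 (14.8%) were separated above and 0 below. Saa2 read 8.08, 9.92 and 10.71 in PH arrays, 7.31 and 7.83 in sham arrays and 7.63, 7.74 and 8.04 at 0 h. That gene differed by 1.76 ± 1.07, with an SD of 1.35 in the PH arrays and 0.22 at 0 h. A second Saa2 probe set gave 0.66 ± 0.88, with overlapping arrays. The metallothioneins Mt1 (1.19 ± 0.84) and Mt2 (1.41 ± 0.78), which bind zinc and respond to glucocorticoid, did not pass. Their SE carries the spread of other groups, but each also passed in 0 of 15 alternative fits, that on the 6 arrays among them. Of 45 measured growth factors and receptors 3 (6.67%) were separated above and 0 below. Hgf, the hepatocyte growth factor, differed by 0.18 ± 0.10 at a level near 3 and its receptor Met by 0.19 ± 0.12. Of 42 measured cell cycle genes 1 (2.38%) was separated above and 8 (19%) below, with a median of -0.029. Ccnd1, cyclin D1, read 7.07, 7.15 and 6.95 in PH arrays, 6.68 and 6.90 in sham arrays and 6.84, 6.72 and 6.98 at 0 h (0.21 ± 0.18). Cdkn1a, which encodes the inhibitor p21, differed by -0.26 ± 0.11 and -0.73 ± 0.27 on 2 probe sets, with adjusted p of 0.856 and 0.786. Of the heat shock genes Hspa1b read 7.82, 6.90 and 7.87 in PH arrays, 9.48 and 7.16 in sham arrays and 10.47, 9.31 and 7.46 at 0 h, so that its groups overlapped.

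**Figure D3:**
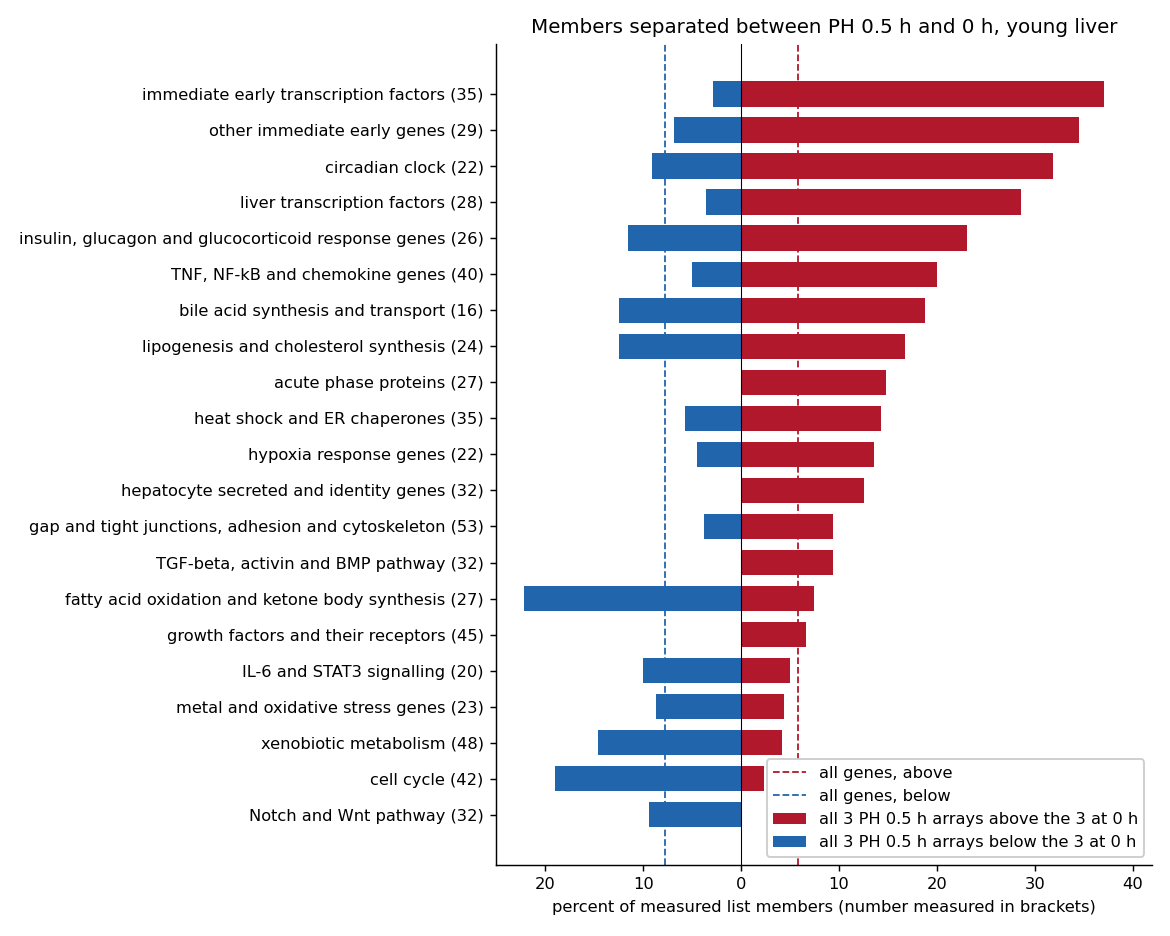
Bars give, for each gene list, the percent of measured members whose 3 PH arrays at 0.5 h all lie above (right) or all below (left) the 3 arrays at 0 h in young liver; brackets give the number measured and dashed lines the same percent over all 8251 genes (5.82% above, 7.73% below). The longest bars to the right are the immediate early transcription factors at 37.1%, the other immediate early genes at 34.5% and the clock genes at 31.8%.

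At the same time after a sham operation Fos, Egr1, Junb, Igfbp1 and G6pc rose against 0 h. Both sham arrays were above all 0 h arrays in 11 of the 35 immediate early transcription factors and below in 1, and in 15 and 3 of the 29 other immediate early genes. The same counts were 3 and 3 of the 22 clock genes, and 1536 and 1506 of all 8251 genes. In the comparison of young sham 0.5 h with 0 h, 185 of 12422 probe sets (1.49%) passed, 114 higher and 71 lower. Of the immediate early transcription factors 3 passed, all higher: Fos by 4.44 (adjusted p = 0.0202), Egr1 by 2.88 (adjusted p = 0.0137) and Junb by 0.82 (adjusted p = 0.0387, on a probe set of the suffix _r_at). Of the insulin and glucagon list Igfbp1 rose by 3.41 (adjusted p = 0.00392) and G6pc by 1.65 (adjusted p = 0.00737). None of the 22 clock genes passed. Each of these 5 calls rests on 2 sham arrays: without sham replicate 1 limma called 0 probe sets, with 668 at an unadjusted p under 0.05, and without replicate 2 it called 122. Fos had an adjusted p of 0.206 and 0.193 without each array in turn, Junb 0.378 and 0.231, and Igfbp1 0.179 and 0.0363. Among the higher calls 43.9% were probe sets with the suffix _r_at or _i_at, which mark relaxed probe selection, against 9.31% of all probe sets, so the sham arrays also differ from 0 h in less specific probe sets; their part, and that of the lower 3′ actin control of the sham arrays, was not tested.

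Set directly against sham at 0.5 h, PH gave 1346 passing probe sets (10.8%), 646 higher and 700 lower; the 3′ actin control was again lower in the sham arrays, and its part was not tested. Of the genes that were high after both operations these did not pass: Fos differed by -0.17 (adjusted p = 0.939), Egr1 by -0.19 (adjusted p = 0.877), Zfp36 by 0.04 (adjusted p = 0.952) and Igfbp1 by -0.67 (adjusted p = 0.529), which does not show that the 2 operations act alike. Of the 22 clock genes 8 passed higher and 2 lower after PH. Per2 was higher by 1.70 (adjusted p = 1.95e-05), Wee1 by 1.15 (adjusted p = 6.78e-05), Dbp by 2.51 (adjusted p = 0.00168) and Noct by 1.17 (adjusted p = 0.00124), and Arntl was lower, at -1.70 (adjusted p = 0.00302). Outside that list Cyp7a1 was higher by 2.73 (adjusted p = 0.000532), Thrsp by 2.21 (adjusted p = 0.00125), Gjb2 by 1.02 (adjusted p = 0.00112) and Cebpb by 1.24 (adjusted p = 0.00578). Apob, the protein core of liver lipoproteins, read 11.26, 11.35 and 11.57 in PH arrays, 9.57 and 9.47 in sham arrays and 10.56, 10.90 and 10.69 at 0 h. PH was above 0 h and sham below it, and the PH minus sham difference was 1.87 (adjusted p = 3.86e-06). Without sham replicate 1 the count was 136 and without replicate 2 it was 757. Per2, Noct, Thrsp and Cyp7a1 passed without either sham array, with adjusted p of at most 0.0333, whereas without sham replicate 1 Dbp (0.0646), Arntl (0.0643), Gjb2 (0.0536) and Cebpb (0.143) did not.

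Between 0.5 h and 1 h after PH Nr4a1, Tiparp and Rasd1 rose, and Usp2 and Dbp fell. The comparison gave 81 passing probe sets (0.652%), with higher values at 1 h in 28 and lower values in 53. Nr4a1 read 8.34, 8.74 and 8.70 at 1 h, against 7.13, 6.93 and 7.02 at 0.5 h (1.56 ± 0.37, adjusted p = 0.0422). Tiparp, a mono-ADP-ribosyltransferase induced by the aryl hydrocarbon receptor, read 8.24, 8.24 and 7.45 at 1 h and 6.49, 6.35 and 6.60 at 0.5 h (1.50 ± 0.26, adjusted p = 0.00319). Rasd1, a small G protein induced by dexamethasone, read 6.18, 6.48 and 6.00 at 1 h and 4.61, 4.57 and 4.48 at 0.5 h (1.67 ± 0.32, adjusted p = 0.00827). At 0.5 h Rasd1 had lain within its 0 h range of 4.27 to 4.65, whereas Nr4a1 was already above its own. Il1a rose as well, by 0.62 ± 0.14 (adjusted p = 0.0251). Fos read 9.30, 10.05 and 9.25 at 1 h, 1.17 ± 0.92 above 0.5 h (adjusted p = 0.686), and against 0 h its 1 h difference of 5.44 passed (adjusted p = 0.000956). Egr1 (2.82, adjusted p = 0.00717) and Igfbp1 (4.03, adjusted p = 7.44e-05) passed at 1 h against 0 h in the same fit.

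Of the 22 clock genes 2 were lower at 1 h than at 0.5 h, Usp2 and Dbp, and 1 was higher, Nfil3, a repressor at D-boxes (0.52 ± 0.13, adjusted p = 0.0466; named after its value was seen). Usp2 is counted there on its brighter probe set (-1.04 ± 0.26, adjusted p = 0.0467), and its values below are from the dimmer one. Usp2 read 7.41, 6.69 and 6.48 at 1 h, against 8.15, 7.99 and 7.84 at 0.5 h (-1.13 ± 0.19, adjusted p = 0.00319), and Dbp read 6.52, 4.57 and 4.59, against 6.96, 8.02 and 7.28 (-2.19 ± 0.46, adjusted p = 0.016). In both, PH 1 h replicate 1 lay nearest to the 0.5 h arrays. Per2 at 1 h, 4.61, 4.42 and 4.34, did not pass (-0.76 ± 0.21, adjusted p = 0.0834). Foxa2 fell as well: 7.28, 7.19 and 7.14 at 1 h, against 8.11, 8.09 and 8.27 at 0.5 h (-0.95 ± 0.16, adjusted p = 0.00319). At 2 h Usp2 averaged 7.94 ± 0.21 and Dbp 6.48 ± 0.30, and at 4 h 7.14 ± 0.42 and 5.12 ± 0.47 (SD, n = 3 each), so that neither moved in one direction through the series. Igfbp1 averaged 7.36 ± 0.99 at 0 h, 10.10 ± 0.40 at 0.5 h, 11.39 ± 0.15 at 1 h, 11.57 ± 0.31 at 2 h and 11.77 ± 0.05 at 4 h. The hybridisation spike-ins differed between the PH times, 7.76 to 8.35 at 1 h and 9.60 to 10.65 at 0.5 h, and with their mean as a covariate limma called 0 probe sets between 1 h and 0.5 h (664 at an unadjusted p under 0.05).

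**Figure D4:**
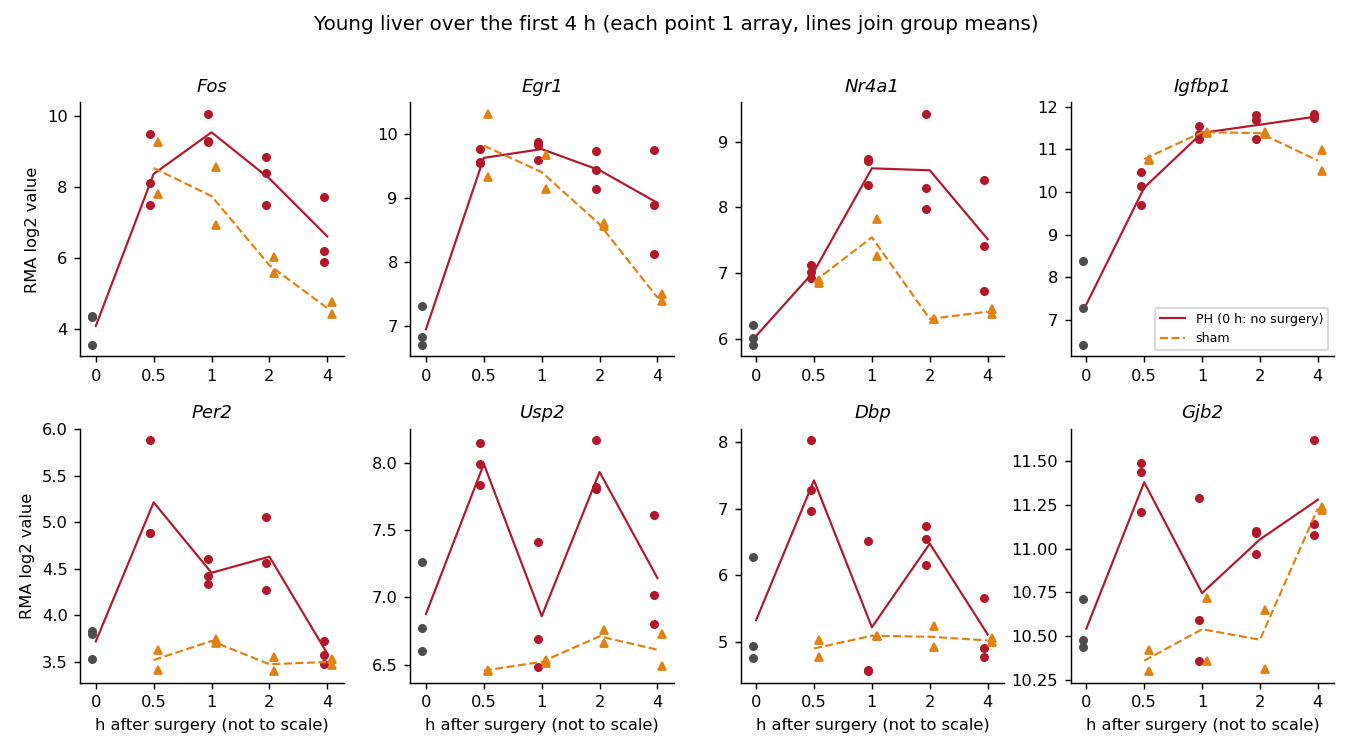
RMA log2 values of 8 genes in young liver against hours after surgery, spaced evenly; red points are PH arrays, orange triangles sham arrays and grey points 0 h arrays, and lines join the group means (n = 3, and 2 for sham). Fos, Egr1 and Igfbp1 are high at 0.5 h after both operations, and Per2, Usp2 and Dbp are high at 0.5 h after PH and lower at 1 h.

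In old liver at 0.5 h after PH 0 probe sets passed against old 0 h in limma (0.0%), with 1112 at an unadjusted p under 0.05. The difference between the ages in the change since 0 h was tested directly, and 1 probe set (0.00805%) passed. It was Srsf5, a serine and arginine-rich splicing factor. Srsf5 read 7.92, 7.77 and 8.09 in old PH arrays and 8.72, 8.97 and 8.32 in old 0 h arrays, against 8.97, 8.78 and 8.76 in young PH arrays and 7.98, 8.15 and 8.06 in young 0 h arrays. The old PH arrays lay below their 0 h group and the young ones lay above theirs, and the old minus young difference was -1.52 ± 0.23 (adjusted p = 0.00136). Neither age passed alone (adjusted p = 0.122 in old and 0.0512 in young). In a fit with only the 12 arrays of the 4 compared groups the age difference of Srsf5 did not pass (adjusted p = 0.057) and limma called 0 probe sets, with 986 at an unadjusted p under 0.05.

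For Per2, Usp2 and Noct the old PH arrays overlapped the old 0 h arrays. Per2 read 3.68, 3.99 and 3.90 in old PH arrays and 4.25, 3.57 and 3.82 in old 0 h arrays, and the old minus young difference in change was -1.52 ± 0.30 (adjusted p = 0.0622). Usp2 read 6.39, 6.54 and 6.49 in old PH arrays and 6.66, 6.61 and 6.52 in old 0 h arrays (-1.24 ± 0.27, adjusted p = 0.112). Noct was already high in old liver: 10.23, 10.38 and 10.71 in old PH arrays and 10.64, 10.39 and 10.20 in old 0 h arrays, against 8.28, 8.11 and 8.51 in young 0 h arrays. Its age difference in change was -1.43 ± 0.29 (adjusted p = 0.0695). Zbtb16 was likewise low in old 0 h arrays, at 5.57, 6.57 and 7.10, and read 7.68, 7.54 and 6.69 in old PH arrays (3.46 ± 0.67, adjusted p = 0.0622). None of these 4 age differences passed, so the ages are not shown to differ in them.

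In old liver Fos and Egr1 were high in 1 of 3 PH arrays. Fos read 4.48, 4.40 and 10.75 in old PH arrays and 6.69, 4.83 and 4.93 in old 0 h arrays, and Egr1 read 6.95, 6.62 and 10.24 in old PH arrays and 9.65, 7.68 and 7.18 in old 0 h arrays. Old PH replicate 3 alone was high for both, and the old minus young differences, -3.21 ± 1.30 and -2.91 ± 0.80, did not pass (adjusted p = 0.565 and 0.429). Jun read 7.45, 7.09 and 8.38 in old PH arrays, all above the old 0 h values of 6.57, 6.55 and 6.64 (1.05, adjusted p = 0.122). All old PH arrays were above all old 0 h arrays in 4 of 35 immediate early transcription factors and 2 of 29 other immediate early genes, against 753 of all 8251 genes. Old PH replicate 1 was the array with high Mt1 (13.10, against 7.25 and 8.24 in the others) and high Saa2 (14.13, against 9.01 and 8.05). The 3 old PH arrays thus differed from one another in different genes, and without old PH replicate 3 the count for the age difference was 11.

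**Figure D5:**
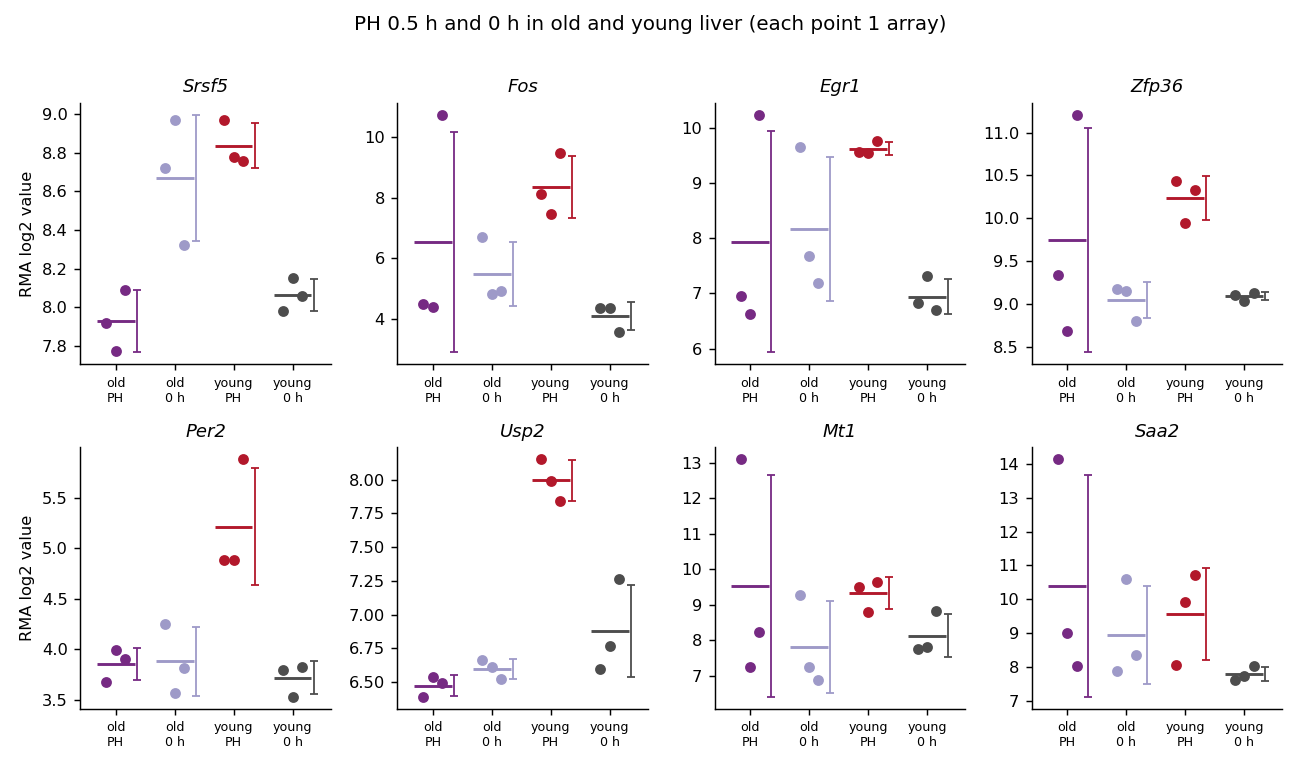
RMA log2 values of 8 genes for old PH at 0.5 h, old 0 h, young PH at 0.5 h and young 0 h; points are arrays, bars means and whiskers SD (n = 3 each). Srsf5 lies below its 0 h group in old liver and above it in young liver, Fos and Egr1 are high in 1 of 3 old PH arrays, and Per2 and Usp2 are at the 0 h level in old PH arrays.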

How the data were processed

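The labels' protocols give RNeasy total RNA, 5 ug of it made into biotin-labelled cRNA, and the platform is Affymetrix's Murine Genome U74 array. Per the submitters' processing notes, RMA gave the deposited log2 values. The sources used here state neither its software and version nor the arrays it treated together. The values were used as deposited. All 46 arrays entered limma 3.58.1 in R 4.3.3 (lmFit, eBayes) with a mean for each of 18 groups, and contrasts were tested two-sided over 12422 probe sets, after 66 control probe sets were left out, with Benjamini-Hochberg adjustment and a threshold of 0.05. Of these, 10833 carried 1 symbol in the platform annotation, 396 several and 1193 none, and only probe sets of the first kind name genes in the text. For gene lists each of 8251 symbols was read on its probe set of highest mean. Arrays have no read depth, so precision rests on how many there are per group. The fit was tested on simulated data. Gene lists, comparisons and named genes were chosen with earlier results of these data known. Named genes were those passing in each comparison (up to 10 each way after PH against 0 h, up to 6 each way elsewhere), the 12 highest and 12 lowest with separated arrays, up to 4 of largest statistic per list, and a list of 35 early, metabolic and cell cycle genes. Alternatives were the arrays in the fit, centring, a filter on dim probe sets, 1 probe set per gene, a spike-in covariate, a replicate block and each array left out. Promoters came from RefSeq's table.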

Additional observations from a re-analysis of the deposited data

Results flagged for a closer look

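The change of Srsf5 since 0 h differed between the ages by the test of that difference itself (old minus young -1.52, limma adjusted p = 0.00136): the old PH arrays were below their 0 h arrays and the young ones above theirs. With only the arrays of the 4 compared groups in the fit the difference did not pass (adjusted p = 0.057).

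For 3 further genes every PH array at 0.5 h lay on one side of the 0 h arrays in old liver and on the other in young liver, and the difference did not pass. Socs1, an inhibitor of cytokine signalling, read 7.68, 7.06 and 7.26 in old PH arrays and 7.04, 6.86 and 6.80 in old 0 h arrays, against 7.09, 6.93 and 6.95 in young PH arrays and 7.35, 7.18 and 7.21 in young 0 h arrays (old minus young 0.69, limma adjusted p = 0.485). Traf2, an adaptor of TNF receptors, differed by 0.3 (adjusted p = 0.577). Arg1, the urea cycle enzyme arginase, differed by -0.69 (adjusted p = 0.472), with 11.64, 11.60 and 11.13 in old PH arrays and 12.02, 11.66 and 11.78 in old 0 h arrays, against 12.09, 11.90 and 12.07 in young PH arrays and 11.66, 11.75 and 11.68 in young 0 h arrays. Such opposite sides were looked for only among the named genes.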

How the results depend on the processing

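The count for PH 0.5 h against 0 h was 5, and it moved with most settings: 50 with only the arrays of the compared groups, 2 with the sham arrays left out, 16 with each array centred on its median, 15 without the dimmest 25% of probe sets, 13 with 1 probe set per gene, 29 with the spike-in mean as a covariate and 16 without probe sets named _r_at or _i_at (chosen after seeing the data); it was 6 with trended, robust variances and 7 with the replicate block. Leaving out 1 array gave 2 to 14, the lowest without young 0 h replicate 1 and the highest without young 0 h replicate 3, and 3 without PH replicate 3. Against sham the count of 1346 became 2317 with only the compared arrays, 1193 with the replicate block, and 136 to 1246 without 1 array. The sham count of 185 became 110 with 1 probe set per gene, 99 without _r_at and _i_at names, 185 with the block, and 0 to 413 without 1 array (49, 34 and 413 without young 0 h replicates 1, 2 and 3). Between 1 h and 0.5 h, 81 became 238 with only the compared arrays, 29 without sham arrays, 47 when centred, 0 with the spike-in covariate, 87 with the block and 10 to 126 without 1 array. The age difference of 1 became 0 with only the compared arrays (986 at an unadjusted p under 0.05), 5 when centred, 4 with 1 probe set per gene, 4 with the spike-in covariate, 1 with the block and 1 to 11 without 1 array. Centring moved the share of higher calls to 93.8%, against 80% uncentred, for PH against 0 h, to 48.9%, against 34.6%, for 1 h against 0.5 h, and to 20%, against 0%, for the age difference. Same-numbered arrays of the PH and 0 h groups did not deviate together (correlations of -0.01, -0.108 and -0.164), so the numbers were not used as pairs. The causes were not tested beyond the fewer arrays or probe sets that some settings hold.

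Noct passed in 15 of 15 alternatives for PH against 0 h and Per2 in 14 of 14, while Usp2 passed in 10 of 14, Thrsp in 10 of 15 and Zbtb16 in 9 of 15. Over the 67 genes followed, 944 of the values under an alternative kept their direction and side of the threshold, 15 lost the call, all of Thrsp, Usp2 or Zbtb16, and 80 of 30 genes gained one. Myc, at 0.10, reversed to -0.38 without young 0 h replicate 3 and to -0.02 without PH replicate 2, and without young 0 h replicate 1 it was 0.5.

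The limits are 3 arrays against 3, or 2 for sham, one hybrid strain, whole tissue, an unstated hour of collection, and a spread shared with groups in which early genes varied more.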

Other observations

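Of the genes separated below 0 h at 0.5 h after PH in young liver, which were 638 of 8251 (7.73%), 3 are described here; none of the 3 passed the test. Ccng2, a cyclin that rises in resting cells, read 5.97, 6.32 and 5.86 in PH arrays, 7.33 and 6.93 in sham arrays and 7.21, 7.34 and 6.42 at 0 h (-0.94 ± 0.29, limma adjusted p = 0.446). Chka, choline kinase alpha, read 7.60, 7.34 and 7.33 in PH arrays, 8.73 and 8.29 in sham arrays and 8.45, 8.74 and 7.73 at 0 h (-0.88 ± 0.31, adjusted p = 0.732). Elovl3, an elongase of very long chain fatty acids with a daily rhythm in male liver, read 5.79, 5.71 and 5.73 in PH arrays, 6.95 and 6.77 in sham arrays and 6.61, 6.83 and 6.17 at 0 h (-0.80 ± 0.37, adjusted p = 0.897). In all 3 the sham arrays lay at the level of young 0 h replicates 1 and 2, and young 0 h replicate 3 was the 0 h array nearest to PH. Against sham Ccng2 (-1.08, adjusted p = 0.0288) and Chka (-1.09, adjusted p = 0.0381) passed and Elovl3 (-1.12, adjusted p = 0.077) did not. Without sham replicate 1 or sham replicate 2 neither Ccng2 (adjusted p = 0.324 and 0.0592) nor Chka (adjusted p = 0.364 and 0.0701) passed against sham.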
